A study of Mus musculus with 6 samples.

Results

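Cxcl9, Cxcl10 and Cxcr3 are 2 chemokine genes and the gene of the receptor through which both chemokines act. They are 3 of 22180 genes measured in 6 B16-F1 melanoma tumours, and each has 1 probe set on the array that is annotated to that gene alone. The tumours grew at the dorsal flank of Stat2 KO hosts (3 tumours) or WT hosts (3 tumours), all mice of C57BL6 background, and were taken at day 20. B16-F1 is a pigmented mouse melanoma cell line. The host carries the Stat2 deletion. The implanted melanoma cells are labelled alike in both groups, with no word of a deletion in them. The deletion is not restricted to a cell type in the labels, and the age and sex of the mice are not given in the sources used here. Larger tumours in the Stat2 KO hosts are mentioned in the design text. The labels do not say whether each tumour came from its own mouse, so errors measure the spread between these tumours, and 3 arrays a group limit the precision.

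CXCR3 is a Gi-coupled receptor on activated T cells, natural killer cells and some dendritic cells, and its ligands draw these cells into inflamed tissue and tumours. CXCL9 is made mainly after interferon gamma, with IRF1 among the factors that act on its gene. CXCL10 can also be made after type I interferon, through a complex that holds STAT2 and IRF9, and NF-kB adds to the transcription of both genes. In tumours, macrophages and dendritic cells are known sources of both chemokines.

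The members were chosen by a rule that uses their levels and their differences between hosts. The levels and differences of Cxcl9, Cxcl10 and Cxcr3 between hosts are therefore given as a description, without a p-value. All levels are log2 expression values and all differences are Stat2 KO host minus WT host in log2 units, with the SE from the limma fit over all genes.

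The sequences just before and at the starts of the 3 genes are shown because interferon and NF-kB motifs there are the letters that the named transcription factors are known to read. They come from RefSeq (GRCm38.p6) and run 5′ to 3′ on the strand of the gene, from 250 bases before to 50 bases after its annotated start. Capitals mark matches to the interferon-stimulated response element core (TTTC, then NN, then TTTC) or to the NF-kB motif GGGNNTTCC, each searched on both strands. The window of Cxcl9 is chr5:92328030-92328329, that of Cxcl10 is chr5:92348840-92349139 and that of Cxcr3 is chrX:101734098-101734397, all on the minus strand.
Cxcl9: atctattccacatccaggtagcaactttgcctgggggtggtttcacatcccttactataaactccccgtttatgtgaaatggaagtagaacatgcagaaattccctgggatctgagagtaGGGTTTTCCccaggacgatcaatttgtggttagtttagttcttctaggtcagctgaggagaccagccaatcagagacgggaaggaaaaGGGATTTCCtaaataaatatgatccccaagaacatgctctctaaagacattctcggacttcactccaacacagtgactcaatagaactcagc
Cxcl10: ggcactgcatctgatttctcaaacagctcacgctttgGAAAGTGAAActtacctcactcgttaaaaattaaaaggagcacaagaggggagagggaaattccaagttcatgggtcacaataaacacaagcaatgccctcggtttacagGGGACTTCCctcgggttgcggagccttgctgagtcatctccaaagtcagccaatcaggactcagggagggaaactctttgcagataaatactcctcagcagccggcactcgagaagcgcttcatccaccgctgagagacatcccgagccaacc
Cxcr3: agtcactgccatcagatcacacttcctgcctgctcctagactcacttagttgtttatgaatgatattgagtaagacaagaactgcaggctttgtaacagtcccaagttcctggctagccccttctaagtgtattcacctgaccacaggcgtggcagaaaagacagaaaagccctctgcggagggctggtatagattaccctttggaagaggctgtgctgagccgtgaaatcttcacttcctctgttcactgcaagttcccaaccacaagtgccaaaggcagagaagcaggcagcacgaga

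The window of Cxcl9 held 2 NF-kB matches, GGGTTTTCC and GGGATTTCC, which begin 130 and 42 bases before the start. The window of Cxcl10 held 1 interferon-stimulated response element match, GAAAGTGAAA on the opposite strand, which begins 213 bases before the start. It also held 1 NF-kB match, GGGACTTCC, which begins 103 bases before the start. The window of Cxcr3 held no match to either motif. The interferon gamma activated site TTCNNNGAA, which reads the same on both strands, had no match in any of the 3 windows. The motif matches did not overlap each other. Of 32851 windows of this length, 3.44% held the interferon-stimulated response element core, 8.3% the interferon gamma activated site and 5.82% the NF-kB motif. The form of the NF-kB motif was chosen after these windows had been read, and the counts of its matches depend on that form. A match is a description of letters. Windows without one say nothing of a factor that reads other letters within them or acts from further away.

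Cxcl9 was the member that differed most between hosts. Its levels were 6.26, 6.27 and 5.91 in the tumours of Stat2 KO hosts, against 7.73, 7.43 and 8.35 in those of WT hosts (replicates 1, 2 and 3). Every Stat2 KO tumour read lower than every WT tumour, and the gap between the highest Stat2 KO tumour and the lowest WT tumour was 1.16 log2 units. Stat2 KO hosts averaged 6.15 ± 0.204 and WT hosts 7.84 ± 0.467 (SD, n = 3 each). The difference was -1.69 (SE 0.209), a linear ratio of Stat2 KO to WT of 0.309. Single pairs of a Stat2 KO and a WT tumour differed by between -1.16 and -2.44. By its difference Cxcl9 stood second of 22180 genes, counted from the lowest. In whole tumours, fewer cells that make a transcript and less transcript per cell cannot be told apart.

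Cxcl10 differed in the same direction and by less. Its levels were 6.24, 5.56 and 6.39 in Stat2 KO hosts, against 6.65, 6.87 and 7.12 in WT hosts. The groups did not overlap, but the gap between them was 0.26, smaller than the range of 0.832 among the Stat2 KO tumours. Cxcl10 averaged 6.06 ± 0.444 in Stat2 KO hosts, against 6.88 ± 0.235 in WT hosts (SD, n = 3 each), a difference of -0.82 (SE 0.207). On the linear scale the ratio of Stat2 KO to WT was 0.568. It stood at rank 42 of the 22180 differences, counted from the lowest. Stat2 KO replicate 2 held the lowest Cxcl10 level, and without that tumour the difference was -0.56.

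Cxcr3, the receptor, had overlapping groups. Its levels were 6.49, 6.70 and 6.43 in Stat2 KO hosts, against 6.53, 6.57 and 6.21 in WT hosts. The highest value was Stat2 KO replicate 2 and the lowest WT replicate 3. Stat2 KO hosts averaged 6.54 ± 0.143 and WT hosts 6.44 ± 0.200 (SD, n = 3 each), a difference of 0.10 (SE 0.147) with a 95% interval from -0.22 to 0.42. The interval covers the spread between these readings only. Its SD over the 6 arrays, 0.165, was below the median of 0.195 over all genes.

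Groups did not overlap, with Stat2 KO lower, for 2 of the 3 members, Cxcl9 and Cxcl10. The same held for 5.11% of all 22180 genes, with another 8.23% higher without overlap, and 8.82% had an unadjusted p under 0.05 by limma in either direction. Nothing is read from the members' count since they were chosen with this contrast known.

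**Figure D1:**
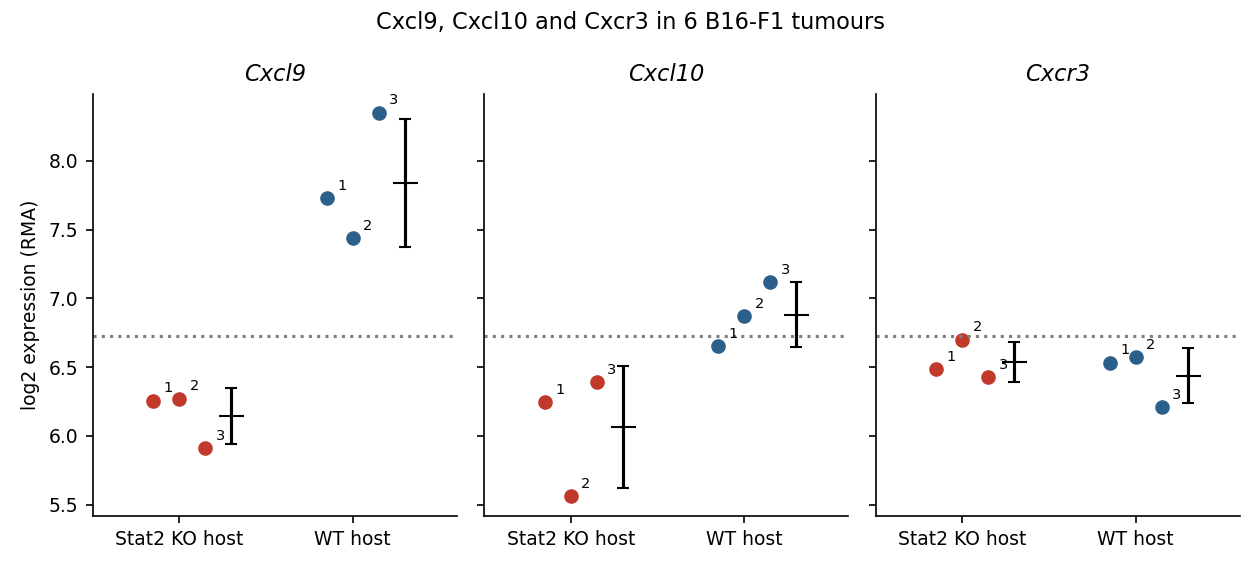
Log2 expression of Cxcl9, Cxcl10 and Cxcr3 (vertical axis) in each tumour, with Stat2 KO hosts in red on the left and WT hosts in blue on the right of each panel. Small numbers give the replicate, bars give the mean ± SD (n = 3), and the dotted line marks 6.73, the level below which 95% of olfactory receptor genes lie. Cxcl9 shows the widest gap between hosts, Cxcl10 a narrow one and Cxcr3 overlapping groups.

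The levels were also set beside 1088 olfactory receptor genes, which have no known use in melanoma, as a guide to how dim probe sets read on these arrays. Their median level was 5.21 and 95% of them lay below 6.73. In WT hosts the mean of Cxcl9 exceeded the means of 99.9% of olfactory receptor genes and that of Cxcl10 exceeded 97.5% of them. In Stat2 KO hosts the shares were 78% for Cxcl9 and 74.1% for Cxcl10. For Cxcr3 they were 89.2% in Stat2 KO hosts, against 92.9% in WT hosts. Both ligand genes in Stat2 KO tumours and Cxcr3 in both groups read within the range of these dim genes, so the probe sets were not shown to read above background there. A log2 difference understates the change of a transcript whose lower group lies near background, and a flat Cxcr3 reading sets no narrow limit on the number of CXCR3-bearing cells. Probe sets differ in affinity, so the levels of the 3 members are not ranked against each other.

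Dim probe sets read higher on the Stat2 KO arrays, with a median difference of 0.22 over the olfactory receptor genes, 82% of which were higher. Over all 22180 genes the median difference was 0.021. The difference of Cxcr3, 0.10, was positive and lay below that median of the olfactory receptor genes.

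The differences were recomputed under 12 alternatives, namely 3 further normalizations, the mean of all probe sets, array weights, a replicate block and each array left out in turn. The mean of all probe sets and the replicate block cannot move these differences, since each member has 1 probe set and the numbers are balanced. Leaving out an array cannot turn the sign where the groups do not overlap, so the sizes are given. That of Cxcl9 ranged from -1.89 without WT replicate 2 to -1.44 without WT replicate 3. That of Cxcl10 ranged from -0.98 without Stat2 KO replicate 3 to -0.56 without Stat2 KO replicate 2. For Cxcr3 the range was -0.022 with array weights to 0.17 without WT replicate 2. Cxcr3 changed sign with array weights and without WT replicate 3, at -0.016.

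**Figure D2:**
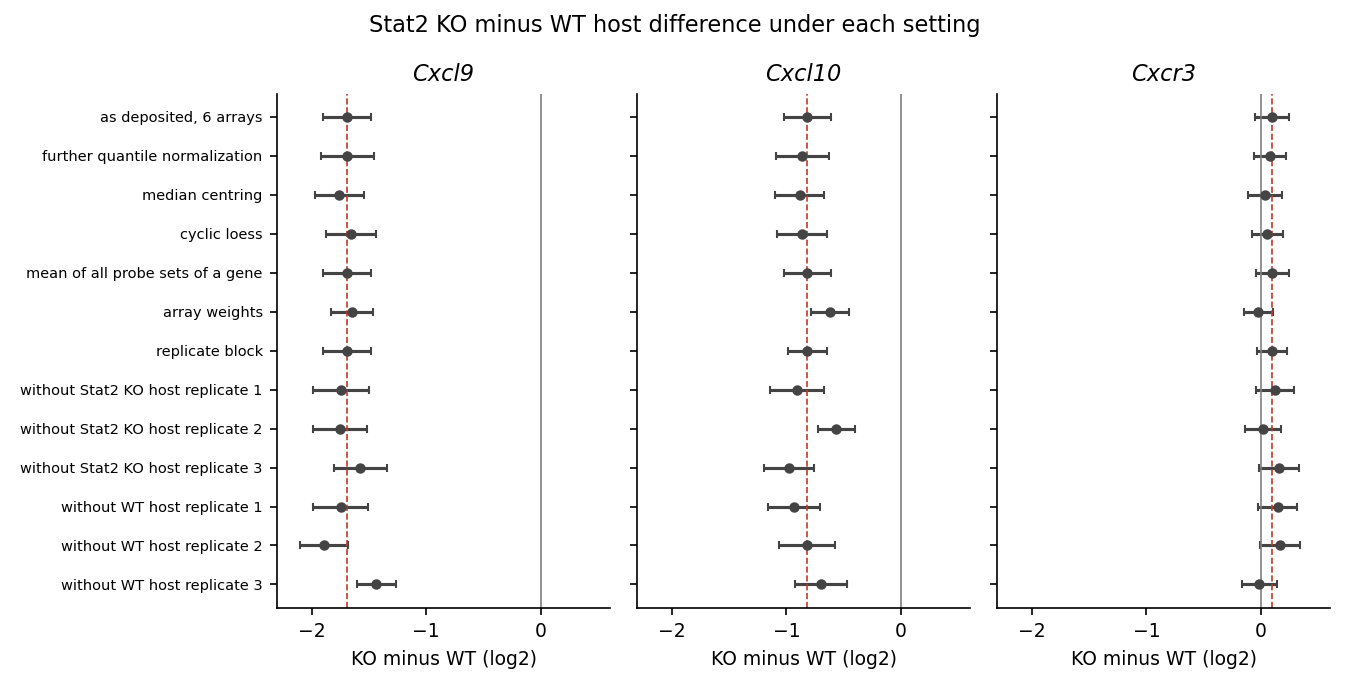
Difference between Stat2 KO and WT hosts (horizontal axis, log2 units, with SE bars) for each member under the deposited normalization and each alternative setting (rows). The dashed line marks the value with all 6 arrays and the solid line 0. Cxcl9 stays between -1.89 and -1.44, Cxcl10 between -0.98 and -0.56, and Cxcr3 lies near 0 throughout.

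The order of tumours within each host genotype does not enter the contrast that chose the members. Cxcl9 and Cxcl10 shared their highest WT tumour, replicate 3, but not their lowest, which was replicate 2 for Cxcl9 and replicate 1 for Cxcl10. Among Stat2 KO tumours Cxcl9 was lowest in replicate 3, where Cxcl10 was highest. Stat2 KO replicate 2 held the lowest level of Cxcl10 and the highest of Cxcl9. Cxcr3 was lowest in WT replicate 3, where both ligand genes were highest. With 3 tumours a group these orders are a description only.

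Transcripts of the other CXCR3 ligands, Cxcl11 and Pf4, did not differ detectably. Cxcl11, the third interferon-induced ligand gene, is annotated as a transcribed pseudogene in the C57BL/6J reference, and mice of this background are known to make no CXCL11 protein. It read 6.01, 6.13 and 6.08 in Stat2 KO hosts, against 6.12, 5.80 and 6.05 in WT hosts, with overlapping groups and a difference of 0.084 (SE 0.138, limma adjusted p = 0.859). Pf4, a platelet chemokine that also binds CXCR3, differed by -0.029 (SE 0.148, adjusted p = 0.959). Dpp4, the protease that trims and thereby inactivates CXCL10, differed by 0.13 (SE 0.137, adjusted p = 0.779), and Ackr3, a scavenging receptor that binds CXCL11, by -0.086. With Ackr1 and the heparan sulfate proteoglycan gene Sdc4 these are 6 genes around the ligands, of which 2 were lower and 4 higher. By limma 0 of the 6 had an adjusted p under 0.05 and 0 an unadjusted p under 0.05. Cxcl11, Pf4, Dpp4 and Ackr1, 4 of the 6, had a mean level below 6.73. They were thus not shown to read above background.

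Genes next to Cxcl9 and Cxcl10 on chromosome 5, where the 3 interferon-induced ligand genes lie together, showed no differences of that size. RefSeq's gene order (GRCm38.p6) gives Uso1, U90926, Ppef2, Naaa and Sdad1 before the locus and Nup54, Scarb2, Fam47e, Stbd1 and Ccdc158 after it, with Art3 between Cxcl9 and Cxcl10. These 11 genes differed by between -0.28 and 0.22, 6 of them lower and 5 higher, and 0 had an unadjusted p under 0.05 by limma. Art3, named because it lies inside the locus, differed by -0.065 (SE 0.161). Groups did not overlap for 1 of the 11, Fam47e, which was higher in Stat2 KO hosts by 0.19, where 13.3% of all genes had groups that did not overlap in either direction.

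**Figure D3:**
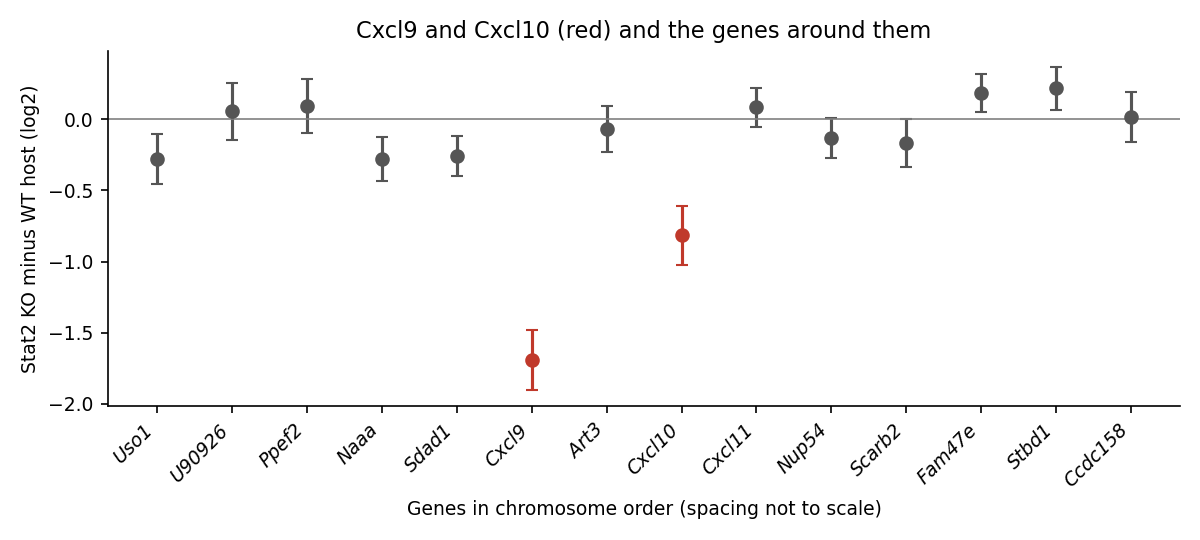
Difference between Stat2 KO and WT hosts (vertical axis, log2 units, with SE bars) for Cxcl9 and Cxcl10 (red) and the measured genes around them (grey), in chromosome order and not to scale. Cxcl9 at -1.69 and Cxcl10 at -0.82 lie below all other genes shown, which stay between -0.28 and 0.22.

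Upstream of the ligands, Ifng did not differ detectably, while Il18 was lower at an unadjusted p under 0.05. Ifng, the main inducer of Cxcl9, read 5.77, 5.51 and 5.74 in Stat2 KO hosts, against 5.58, 5.35 and 5.83 in WT hosts, a difference of 0.090 (SE 0.157, limma adjusted p = 0.870). All its values lay below 6.73, so Ifng was not shown to read above background. Il18, which helps natural killer and T cells to make interferon gamma, was lower at 6.39, 6.44 and 6.41 in Stat2 KO hosts, against 7.02, 6.86 and 6.78 in WT hosts. Its difference was -0.47 (SE 0.129, unadjusted p = 0.00308, adjusted p = 0.460). Tbx21, which encodes T-bet, a factor that also drives Cxcr3 transcription in T cells, differed by 0.37 (SE 0.152, adjusted p = 0.538), with 0.24 without Stat2 KO replicate 2. Of 11 measured genes for interferon gamma and its induction, 4 were lower and 7 higher. All 11, Tbx21 and Il18 included, had a mean level below 6.73, within the range of the dim olfactory receptor genes. Of those dim genes 82% read higher in Stat2 KO hosts. By limma 1 of them, Il18, was lower at an unadjusted p under 0.05, where 3.48% of all genes were. Another, Tbx21, was higher, where 5.34% were, and 0 had an adjusted p under 0.05, where 0.00902% of all genes did.

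Genes of the interferon receptors and their STAT and IRF factors were lower in 14 of 15 measured members, with a median difference of -0.17, where 46% of all genes were lower and their median was 0.021. Stat2 itself read 6.45, 6.48 and 6.33 in Stat2 KO hosts, against 6.79, 6.70 and 6.70 in WT hosts. Its difference was -0.31 (SE 0.126, adjusted p = 0.532), a weak check of the labels, because the tumour cells are not labelled as lacking the gene and the part it probes is not given. Irf9, the DNA-binding partner of STAT2, differed by -0.32 (SE 0.160, adjusted p = 0.590), with -0.20 without Stat2 KO replicate 2. Irf1, which acts on Cxcl9 after interferon gamma, differed by -0.24 (SE 0.162, adjusted p = 0.673), and without WT replicate 3 by -0.068. Ifngr1, a chain of the interferon gamma receptor, differed by -0.39 (SE 0.145, adjusted p = 0.509). At an unadjusted p under 0.05 limma called 2 of the 15 lower, Ifngr1 and Stat2, where 3.48% of all genes were, and 0 higher, where 5.34% were, and 0 had an adjusted p under 0.05. The 1 member that was higher, Ifnb1, named after its values were seen, encodes interferon beta and differed by 0.24 (SE 0.170, adjusted p = 0.684), with overlapping groups. Its mean level of 4.94 lay below the median of 5.21 of the olfactory receptor genes, whose median difference was 0.22. Tnf, the gene of a cytokine that acts through NF-kB, read 6.14, 6.25 and 6.17 in Stat2 KO hosts, against 5.97, 5.97 and 6.07 in WT hosts. Its groups did not overlap, with Stat2 KO higher, as for 8.23% of all genes, and the difference was 0.19 (SE 0.126, adjusted p = 0.671). The mean level of Tnf, 6.09, lay below 6.73, and its difference below the 0.22 of the olfactory receptor genes. Of 8 measured genes for TNF and NF-kB inputs 6 were lower, with a median of -0.11, and by limma 0 had an unadjusted or adjusted p under 0.05.

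Genes listed as induced by interferon gamma were lower as a group alongside Cxcl9. Which interferon set their levels was not tested. Of the 16 measured genes of this list 13 were lower and 3 higher, where 46% of all genes were lower, and the median was -0.52. The mean level of 12 of the 16 lay below 6.73, within the range of the dim olfactory receptor genes. By limma 10 of the 16 were lower at an unadjusted p under 0.05, where 3.48% of all genes were, and 0 were higher, where 5.34% were. With adjustment over all genes 0 of the 16 passed. Irgm1, an immunity-related GTPase, read 5.83, 5.81 and 5.81 in Stat2 KO hosts, against 6.81, 6.33 and 7.27 in WT hosts, a difference of -0.98 (SE 0.199, adjusted p = 0.312). Nlrc5, the transactivator of MHC class I genes, read 5.79, 5.82 and 5.67 in Stat2 KO hosts, against 6.54, 6.48 and 6.47 in WT hosts, a difference of -0.74 (SE 0.127, adjusted p = 0.195, and 0.0187 with array weights). Array weights gave 257 of all genes an adjusted p under 0.05 by limma, against 2 without the weights. The immunoproteasome subunit gene Psmb8 differed by -0.69 (SE 0.158) and Igtp, another immunity-related GTPase, by -1.03 (SE 0.293), with -0.64 without WT replicate 3. Not all members were lower. Outside the rule for named genes, and chosen after their values were seen, the 3 higher ones were Ido1 (0.21), Gbp5 (0.15) and Ciita (0.11). The list was chosen with results of these data known, so its count is not independent of them. Among genes above the median level 5 members were lower at an unadjusted p under 0.05, because fewer members enter that fit, and 9 were so without WT replicate 3. Of 11 genes of the list, Gbp2 without a probe set of its own included, that have a promoter window in RefSeq, 7 held the interferon-stimulated response element core that the Cxcl10 window holds, 5 the interferon gamma activated site and 0 the NF-kB motif.

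**Figure D4:**
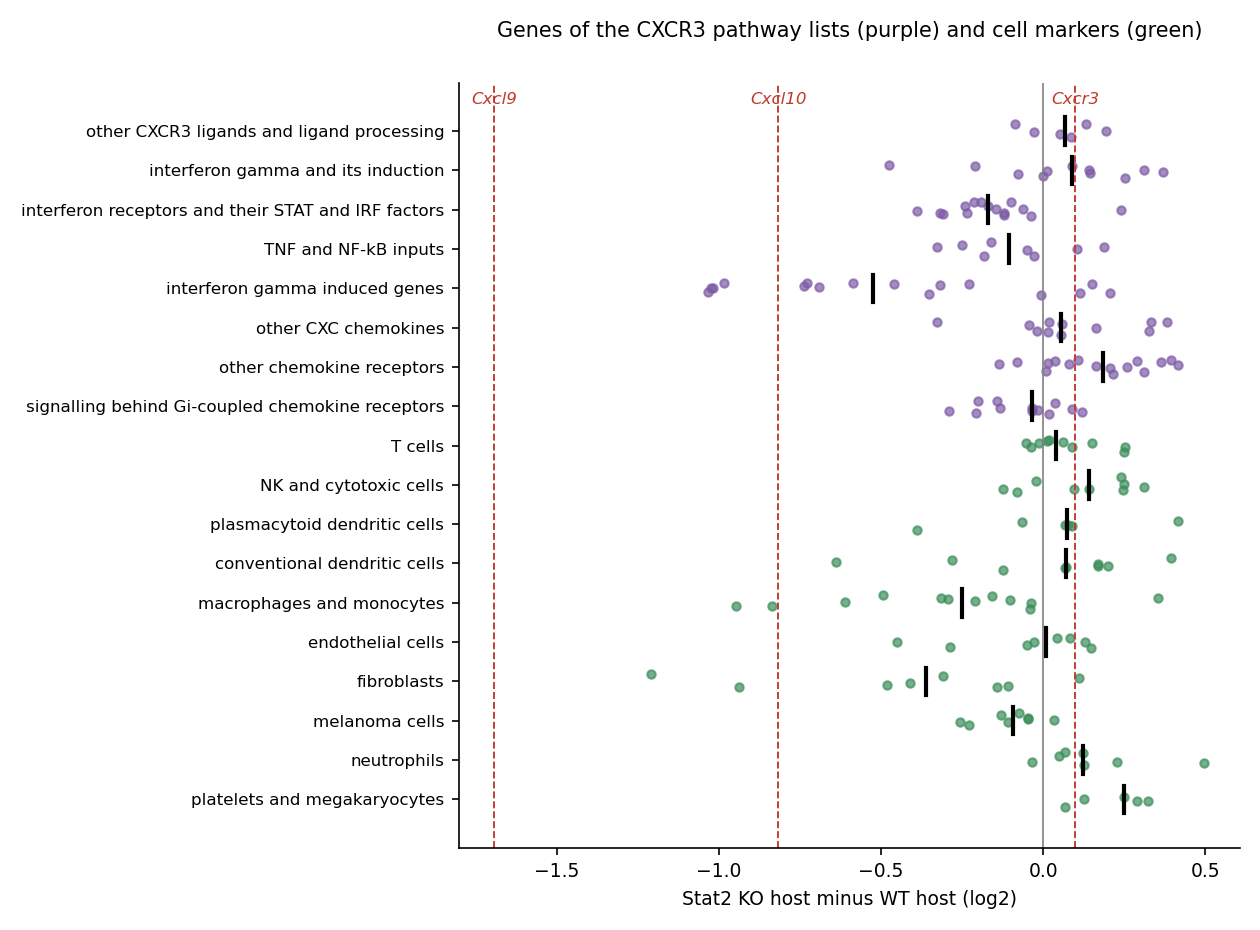
Difference between Stat2 KO and WT hosts (horizontal axis, log2 units) for each measured gene of the pathway lists (purple) and cell marker lists (green), 1 row per list. Short black bars give list medians and dashed red lines the 3 members. The interferon gamma induced genes, the fibroblast markers and the macrophage and monocyte markers have the 3 lowest medians (-0.52, -0.36 and -0.25), and no listed gene lies as low as Cxcl9.

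Other CXC chemokine genes were mixed. Among the 11 measured ones 3 were lower and 8 higher. Their median was 0.055, and -0.012 with median centring, and 0 had an adjusted p under 0.05 by limma. Cxcl16, which draws CXCR6-bearing T cells, was the 1 gene lower at an unadjusted p under 0.05, where 3.48% of all genes were, at 6.90, 6.66 and 6.79 in Stat2 KO hosts, against 7.05, 7.08 and 7.21 in WT hosts. Its difference was -0.33 (SE 0.132, adjusted p = 0.528). Cxcl17 and Cxcl15 were higher at that threshold, where 5.34% of all genes were, by 0.38 (SE 0.151) and 0.33 (SE 0.147), and Cxcl15 lay among the dim genes, with 0.21 after cyclic loess.

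Other chemokine receptor genes were lower in 2 and higher in 14 of 16 measured members, where 46% of all genes were lower, with a median of 0.18, close to the median of 0.22 of the olfactory receptor genes, and 14 of the 16 had a mean level below 6.73. By limma 2 of the 16, Ccr9 (0.41, SE 0.149) and Ccr8 (0.36, SE 0.151), were higher at an unadjusted p under 0.05, where 5.34% of all genes were, 0 were lower, where 3.48% were, and 0 had an adjusted p under 0.05. The difference of Cxcr3, 0.10, lay below the median of these other receptors. Among 12 measured genes of the signalling that follows Gi-coupled chemokine receptors, 8 were lower and 4 higher, with a median of -0.036. Itgb2, the beta chain of the integrin that leukocytes use to arrest on vessels, differed by -0.29 (SE 0.148, adjusted p = 0.598), with -0.15 without Stat2 KO replicate 2, and by limma 0 of the 12 had an unadjusted or adjusted p under 0.05.

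Markers of T cells and of natural killer and cytotoxic cells, among which CXCR3 is carried, did not differ detectably between hosts. Cd3e, a T cell receptor subunit, read 5.68, 6.08 and 5.91 in Stat2 KO hosts, against 5.82, 5.78 and 5.81 in WT hosts (difference 0.089, SE 0.142, limma adjusted p = 0.854). Cd8a, of cytotoxic T cells, differed by -0.052 (SE 0.152, adjusted p = 0.927), Cd4, of helper T cells, by 0.062 (SE 0.149, adjusted p = 0.908) and Ncr1, of natural killer cells, by 0.14 (SE 0.185, adjusted p = 0.819). Of 10 measured T cell markers 3 were lower and 7 higher. Their median was 0.040, and -0.047 after cyclic loess. Of 9 markers of natural killer and cytotoxic cells 3 were lower and 6 higher, with a median of 0.14, and 0.039 without Stat2 KO replicate 2. By limma 0 markers of either list had an unadjusted or adjusted p under 0.05. All 10 T cell markers and 8 of 9 natural killer and cytotoxic markers, with Prf1 the exception, had a mean level below 6.73. The mean level of the T cell list ranged from 5.76 to 6.01 in Stat2 KO hosts and from 5.73 to 5.90 in WT hosts. At these levels the arrays set no narrow limit on how many lymphocytes the tumours held.

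Among cells known to make the ligands, macrophages had lower markers in Stat2 KO hosts. Macrophage and monocyte markers were lower in 11 of 12 measured members, where 46% of all genes were lower, with a median of -0.25. The mean level of the list ranged from 6.14 to 6.31 in Stat2 KO hosts and from 6.40 to 6.62 in WT hosts, and the ranges did not overlap, while 8 of the 12 had a mean level below 6.73. List means of the Gi-coupled receptor signalling genes, with a median of -0.036, did not overlap either (7.52 to 7.57 against 7.59 to 7.64). By limma 4 of the 12 macrophage and monocyte markers were lower at an unadjusted p under 0.05, where 3.48% of all genes were. At that threshold 1 was higher, where 5.34% of all genes were, and 0 had an adjusted p under 0.05. The complement gene C1qb read 6.22, 6.55 and 6.54 in Stat2 KO hosts, against 7.46, 7.59 and 7.10 in WT hosts, a difference of -0.95 (SE 0.162, adjusted p = 0.195). Ms4a7 differed by -0.83 (SE 0.186), the lysosomal glycoprotein gene Cd68 by -0.61 (SE 0.163) and C1qc by -0.49 (SE 0.141). Ly6c2, of inflammatory monocytes, was the higher one, and is named after its values were seen, at 0.35. C1qb passed the adjusted threshold without WT replicate 3, at a difference of -1.09, where 17 of all genes passed, 14 of them lower. With array weights C1qb (adjusted p = 0.0187), C1qc (0.0423), Cd68 (0.0370) and Ms4a7 (0.0431) all passed it by limma. That setting passed 257 of all genes, 129 lower and 128 higher, against 2 with all arrays weighted alike.

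Conventional dendritic cell markers were lower in 3 and higher in 6 of 9 measured members, with a median of 0.069, and -0.20 among genes above the median level. Irf4 (-0.64, SE 0.200, adjusted p = 0.482, and 0.0406 with array weights) was the 1 member lower at an unadjusted p under 0.05 by limma. Of all genes 3.48% were lower at that threshold. Array weights gave 257 of all genes an adjusted p under 0.05, against 2 without the weights. Plasmacytoid dendritic cell markers, 2 lower and 4 higher of 6, had a median of 0.072. By limma 1 of the 6 was lower at an unadjusted p under 0.05, where 3.48% of all genes were. Another, Ccr9 at 0.41, was higher, where 5.34% were. Bst2, itself interferon-induced, differed by -0.39 (SE 0.177), which became -0.23 with array weights and -0.22 without Stat2 KO replicate 2. Endothelial markers had a median of 0.0070 over 8 members, and -0.059 with median centring. Fibroblast markers were lower in 7 of 8, where 46% of all genes were, with a median of -0.36, and -0.20 without Stat2 KO replicate 2. By limma 3 of the 8 were lower at an unadjusted p under 0.05, where 3.48% of all genes were, and 0 were higher. The mean level of that list ranged from 6.39 to 6.77 in Stat2 KO hosts and from 6.82 to 7.14 in WT hosts, again without overlap. The same held for the interferon receptor list (7.24 to 7.31 against 7.40 to 7.47), the interferon gamma induced genes and the Gi-coupled receptor signalling genes. Among the fibroblast markers Dcn differed by -0.94 (SE 0.210). Lum differed by -1.21 (SE 0.366), with -0.74 without WT replicate 1, and without WT replicate 3 by -1.76, where it passed the limma adjusted threshold (adjusted p = 0.0118). In that fit without WT replicate 3, 17 of all genes passed, 14 of them lower. Melanoma cell markers had a median of -0.093 over 8 members and levels between 9.27 and 13.2, and all 8 exceeded 6.73. Neutrophil and platelet markers had medians of 0.12 and 0.25, and of 0.054 and 0.063 without Stat2 KO replicate 3, with all 7 and all 5 measured members below 6.73. With all 6 arrays weighted alike, limma gave 0 members of these lists an adjusted p under 0.05. The part that the share of any of these cells has in the levels of Cxcl9 and Cxcl10 was not tested.

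The order of tumours within a host genotype was also set beside the lists. Cxcl9, Cxcl10 and 12 of the 16 interferon gamma induced genes were highest in WT replicate 3, where 36.4% of all genes were highest. So were 6 of 7 neutrophil markers and 8 of 11 other CXC chemokine genes. Of the 12 macrophage and monocyte markers 0 were highest in that tumour, and their mean level there was 6.40, against 6.61 and 6.62 in WT replicates 1 and 2. The mean level of the interferon gamma induced genes was 5.93, 6.02 and 6.08 in Stat2 KO hosts, against 6.42, 6.26 and 6.80 in WT hosts. That list followed the order of Cxcl9 in WT tumours, with replicate 3 highest and replicate 2 lowest, for 9 of 16 genes, where 14.5% of all genes had that order. In Stat2 KO tumours 1 of the 16 followed the order of Cxcl9, where 15.1% of all genes did, and 2 that of Cxcl10, where 11.9% did. The macrophage and monocyte list had mean levels of 6.14, 6.26 and 6.31 in Stat2 KO replicates 1, 2 and 3, the same order as the mean of the interferon gamma induced genes there. Of its 12 markers 6 were highest in Stat2 KO replicate 3, the highest for Cxcl10, where 25.5% of all genes were. In Stat2 KO replicate 2, the lowest for Cxcl10, 4 of the 12 were lowest, where 34.2% of all genes were. So were 7 of 8 melanoma, 5 of 8 fibroblast and 5 of 8 endothelial markers. The full order of Cxcl10 held for 2 of the 12 macrophage and monocyte markers. These orders over 3 tumours are a description.

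The genes most like Cxcl9 over the 6 arrays were Irgm1, Ifi204, Igtp, Ccl8 and Gbp7. Likeness was the root-mean-square gap between the profile of each gene and that of Cxcl9, both as deviations from their own means, and was smallest for these 5 of 22179 other genes after predicted transcripts were passed over. The gaps were 0.377 for Irgm1, 0.426 for Ifi204, 0.450 for Igtp, 0.459 for Ccl8 and 0.478 for Gbp7, where the median gene had 0.913 and the spread of Cxcl9 about its own mean was 0.896. Ifi204 belongs to a family of nucleic acid sensors with close paralogs and read below 5.21 in every tumour. Ccl8 is a chemokine that attracts monocytes, and Gbp7 a guanylate-binding protein of the interferon response. Cxcl10 came in at rank 30 by its likeness to Cxcl9, with a gap of 0.593. In the reverse direction Cxcl9 stood only at rank 13984 by its likeness to Cxcl10. The same gap of 0.593 was wider there than the 0.530 of the median gene.

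The genes most like Cxcl10 were H2bc9, Irgm2, Ifit1, Dcn and Lce1i, with gaps of 0.144, 0.152, 0.169, 0.175 and 0.184, where the median gene had 0.530. Irgm2 and Ifit1 are interferon-induced, H2bc9 encodes a histone H2B with near-identical copies, Dcn the matrix proteoglycan decorin and Lce1i a cornified envelope protein. Like Cxcl10, all 5 were lower in Stat2 KO hosts, by between -0.94 (Dcn) and -0.59 (Ifit1), and Stat2 KO replicate 2 held their lowest value. The difference of Irgm2 was -0.73 (SE 0.207). Ifit1 read 6.89, 6.62 and 7.21 in Stat2 KO hosts, against 7.30, 7.41 and 7.78 in WT hosts. Without Stat2 KO replicate 2 the differences were -0.33 for H2bc9, -0.30 for Lce1i and -0.65 for Dcn. The likeness over 6 arrays includes the contrast between hosts and is a description. No genes are named for Cxcr3, since its spread over the arrays was below that of the median gene.

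**Figure D5:**
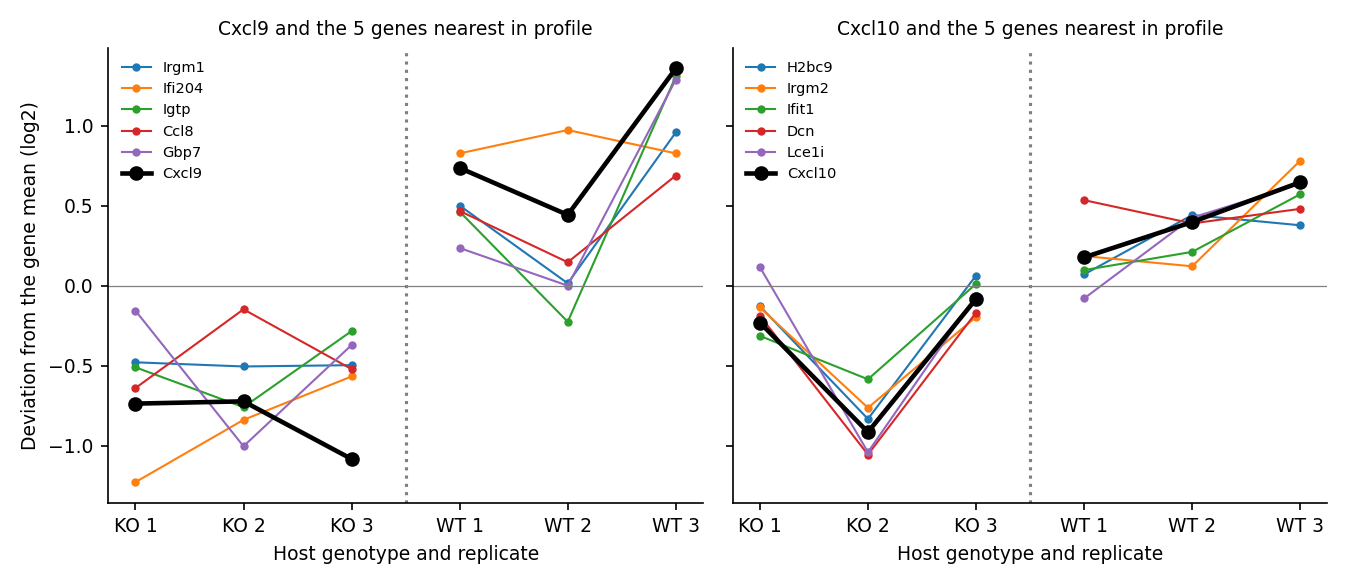
Deviation of each gene from its own mean (vertical axis, log2 units) in the tumours of Stat2 KO hosts (left) and WT hosts (right) for Cxcl9 and Cxcl10 (black) and the 5 genes nearest to each in profile (coloured). Lines join values of 1 gene and carry no order in time. The Cxcl9 panel peaks in WT replicate 3 for all but Ifi204, and the Cxcl10 panel has its lowest values in Stat2 KO replicate 2.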

How the data were processed

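Biotinylated cRNA from total RNA of 6 B16-F1 tumours was read on 1 Affymetrix array each, per the labels' protocols. The authors deposited log2 values for every probe set. Their software, per the submitters' processing notes, was Affymetrix Expression Console 1.3.1, with RMA. RMA normalizes all arrays to 1 distribution of probe intensities, so global shifts are removed, and it compresses differences of dim probe sets.

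Of 41345 probe sets 23521 named 1 gene in the platform annotation, 1814 several and 16010 none. Each of 22180 genes was represented by its brightest single-gene probe set, with no filter on dim ones. Correlations between arrays were 0.964 to 0.986, and 0 pairs were identical. Array medians over all probe sets were 6.08, 6.22 and 6.17 for Stat2 KO hosts and 6.06, 6.06 and 6.13 for WT hosts.

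Differences, SEs and p-values came from limma 3.58.1 in R 4.3.3 (lmFit, eBayes with an intensity trend), Stat2 KO host minus WT host, two-sided, Benjamini-Hochberg over all genes, threshold 0.05. By adjusted p 2 genes passed and 1956 had an unadjusted p under 0.05. Simulated data had 22180 genes, these array numbers and independent normal values, with the mean of each gene and its SD as moderated by limma. There the fit called 98 of 100 genes with a true change of 1 log2 unit and 100 of 100 with a change of 2. Of its 214 calls 16 were false. Real tumours can spread otherwise, so these shares check the fit and do not give its power on these arrays. An exact permutation of 3 against 3 cannot give a p below 0.1 and was not used.

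The members, the 8 pathway and 10 marker lists (185 genes, 175 measured, 2 of them in 2 lists) and the naming rule were chosen with earlier results of these data known. The rule named up to 4 genes of each list with the smallest p, 12 fixed pathway and lymphocyte genes (1 of them not reported here), the 5 measured genes on each side of the ligand locus, and the 5 genes nearest in profile to a member. Not every gene it allowed is named. Olfactory receptor genes served as a dim comparison. Same-numbered tumours of the hosts deviated from their group means with correlations of 0.24, 0.079 and 0.030, so the replicate numbers were not taken as pairs. Alternatives were a further quantile normalization, median centring, cyclic loess, the mean of all probe sets, only genes above the median level, array weights, a replicate block, eBayes without trend or robust, and each array left out.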

Additional observations from a re-analysis of the deposited data

How the results depend on the processing

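The differences of Cxcl9, Cxcl10 and Cxcr3 moved by less than 1 SD between replicates under all 12 alternatives run for them, 2 of which, the mean of all probe sets and the replicate block, cannot move them. Leaving out 1 array at a time gave -1.89 to -1.44 for Cxcl9, -0.98 to -0.56 for Cxcl10 and -0.016 to 0.17 for Cxcr3. With the replicate block the differences were the same, -1.69, -0.82 and 0.10, and their SEs were 0.205, 0.169 and 0.130. The count of genes with an adjusted p under 0.05, 2 as reported, was 3 with the replicate block, 0 after the further quantile normalization, 1 after cyclic loess, 257 with array weights and 1 with eBayes without trend, and 0 to 17 without 1 array (17 without WT replicate 3). The count at an unadjusted p under 0.05, 1956, was 5004 with array weights, 938 among genes above the median level, where fewer genes are tested, and 1177 (without WT replicate 2) to 3260 (without Stat2 KO replicate 1) without 1 array, with 2484 under the replicate block. Its split of 771 lower and 1185 higher was 846 and 820 after quantile normalization, 1083 and 715 with median centring and 874 and 814 after cyclic loess. The pathway lists with large medians kept them, and the interferon gamma induced genes lay between -0.59 with median centring and -0.40 without Stat2 KO replicate 1. Medians near 0 depended on the scaling. That of the other CXCR3 ligands and ligand processing genes was 0.00097 after quantile normalization, 0.0019 with median centring, -0.0038 after cyclic loess, -0.017 with the level filter and -0.034 with array weights, and 0.032 to 0.13 without 1 array. That of the genes for interferon gamma and its induction was -0.028, -0.031, 0.20 and -0.053 after quantile normalization, cyclic loess, array weights and the level filter. That of the interferon receptors and factors was -0.24 with median centring and -0.12 with array weights, and -0.22 to -0.13 without 1 array. That of the signalling genes was -0.10 with median centring and -0.085 with the level filter, and -0.071 to -0.0038 without 1 array. Without Stat2 KO replicate 2 the medians of the T cell (-0.0094), plasmacytoid dendritic cell (-0.0096) and melanoma markers (0.042) changed sign. The cause of these changes was not tested. Signal over background could not be examined, since probe-level intensities were not used here, and this limits the readings of Cxcr3 and of both ligand genes in Stat2 KO tumours.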
